A study of Mus musculus with 5 samples.

Results

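The genes described here are 31 mouse genes for lysosomal enzymes and lysosomal membrane proteins, chosen by name from the 32285 genes of the count matrices, and all 31 were found there. They comprise 6 membrane proteins, 7 proteases, 6 glycosidases, 4 enzymes that break down glycosaminoglycans and 8 proteins that handle lipids in the lysosome. Single-cell RNA was measured in 3T3-L1 cells, a clonal mouse fibroblast line that turns into fat cells in culture. Cultures that received the polymer P-G3 at 10 µg/mL from the start of induction were harvested on day 3 and on day 6. Cultures induced without P-G3, called untreated here, were harvested on the same days, and day 0 cells had neither induction nor polymer. P-G3 is a polyamidoamine dendrimer that carries many positive charges. Induction, the same with and without P-G3, used isobutylmethylxanthine, dexamethasone and insulin, followed by medium with insulin alone. Each of the 5 groups is a single library. Differences between groups therefore have no replicate check and were not tested, and the 95% intervals given cover counting error only.

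Lysosomes are acidic compartments in which hydrolases degrade proteins, glycans and lipids delivered by endocytosis and autophagy. A proton pump, the V-ATPase, acidifies them, and most soluble hydrolases reach them through receptors that recognise mannose 6-phosphate. Many lysosomal genes share a short promoter element that is bound by TFEB, TFE3 and MITF, transcription factors that mTORC1 at the lysosomal surface holds in the cytoplasm when nutrients are plentiful. In fat cells, acid lipase and autophagy offer a lysosomal route of lipid breakdown beside the cytosolic lipases, and polycations taken up by endocytosis pass through the same compartment.

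Promoter windows, from 250 bases before to 50 bases after each start site, were taken from RefSeq on GRCm38.p6 and searched on both strands for CACGTG, the palindromic core of that element, and for TCACGTG, the core with its flanking T, each match of which is also a match of the core. Of the 31 genes 28 matched an entry, and those not matched were Asah1, Ctsb and Npc1. CACGTG was present in 10 of the 28 genes, which is 35.7%, against 8.09% of 27025 genes in the whole table. TCACGTG was present in 9 of the 28, which is 32.1%, against 4.29% of all genes. The whole table is not limited to genes expressed in these cells, and the share among expressed genes was not counted. A raised share was not particular to these genes. In the other lysosomal lists described below, CACGTG was present in 15.0% (autophagy) to 46.2% (sorting to lysosomes) of the matched genes, and in 33.3% for the V-ATPase. The 10 genes with the core were Lamp1, Mcoln1, Ctsa, Ctsd, Ctsl, Gla, Glb1, Sgsh, Naglu and Arsa, and all of these except Ctsl had the flanked form. The stretches below lie before the start site, outside annotated exons, and are read 5′ to 3′ on the strand of the gene. They show how the element is placed in 5 genes that hold it, with the core and any adjoining T or A in capitals, and 2 genes with large differences between libraries that lack it in this window, Lipa and Man2b1. Lamp1 held 4 copies of the core within the 110 bases shown, the most of any of these genes. Mcoln1 and Ctsd each held 2 copies in their windows. Their stretches show 1 of these, and the copy nearer the start site falls outside the bases shown.
Lamp1, chr8:13159051-13159160, plus strand: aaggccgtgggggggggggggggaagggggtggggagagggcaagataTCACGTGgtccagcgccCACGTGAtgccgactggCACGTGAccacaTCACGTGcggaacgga
Mcoln1, chr8:3500347-3500456, plus strand: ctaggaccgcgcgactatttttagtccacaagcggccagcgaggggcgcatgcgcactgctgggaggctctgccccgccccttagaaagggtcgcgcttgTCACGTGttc
Glb1, chr9:114400966-114401075, plus strand: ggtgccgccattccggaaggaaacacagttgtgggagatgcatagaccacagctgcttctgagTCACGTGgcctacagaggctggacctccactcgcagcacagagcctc
Arsa, chr15:89477426-89477535, minus strand: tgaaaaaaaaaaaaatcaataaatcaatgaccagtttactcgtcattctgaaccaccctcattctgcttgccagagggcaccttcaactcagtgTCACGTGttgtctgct
Ctsd, chr7:142388039-142388077, minus strand: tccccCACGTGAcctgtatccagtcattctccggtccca
Lipa, chr19:34527475-34527584, minus strand: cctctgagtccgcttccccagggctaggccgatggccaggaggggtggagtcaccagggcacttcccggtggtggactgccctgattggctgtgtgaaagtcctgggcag
Man2b1, chr8:85083159-85083268, plus strand: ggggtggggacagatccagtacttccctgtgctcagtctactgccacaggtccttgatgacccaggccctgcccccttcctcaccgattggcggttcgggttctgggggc

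The kept cells numbered between 2468 and 3893 per library and held between 88432894 and 179221992 UMIs (unique molecular identifiers, each standing for 1 captured RNA molecule). The day 6 libraries stood apart by their many barcodes with few molecules. Of the kept cells, 47.0% with P-G3 and 37.6% untreated had under 10000 UMIs on day 6, against 0.872% to 5.65% in the other 3 libraries, so results on day 6 are also given for cells above that number where they differ. Any 2 libraries shared between 1 and 6 cell barcodes. The summed level of 9 adipocyte genes, among them Adipoq, Plin1 and Cidec, was 129 CPM (UMIs per 1000000 of the library) on day 0, 2616 CPM with P-G3 and 1936 CPM untreated on day 3, and 12430 CPM with P-G3 and 12070 CPM untreated on day 6. Lpl held the largest part of each sum. It had 128.5 CPM on day 0, and 1047 CPM with P-G3 and 1074 CPM untreated on day 3. On day 6 it had 4430 CPM with P-G3 and 5968 CPM untreated. Of the 9 genes, 5 were higher and 4 lower with P-G3 than untreated on day 6. Macrophages are rich in lysosomes, so 13 markers of macrophages and other immune cells were summed, and they came to between 1.82 and 5.32 CPM, with 6 or 7 of the 13 at 0 in each library. Adgre1, Tyrobp, C1qa and C1qb had no UMI in any library, and Ptprc had 1 UMI in all. Others of the 13 were detected at low levels. Cd14 led the sum on day 0, at 2.646 CPM, and on day 3, at 1.428 CPM with P-G3 and 2.29 CPM untreated. Fcer1g led it on day 6, at 0.9122 CPM with P-G3 and 1.3 CPM untreated. Csf1r had 1.518 CPM and Lyz2 0.901 CPM on day 0. The sum of 7 endothelial and epithelial markers lay between 0.265 and 17.5 CPM and was highest on day 6 with P-G3, where Krt8 led it.

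UMIs of each gene were added up across a library's kept cells, and a difference is the log2 ratio of CPM without a pseudocount. Genes with a mean of at least 5 CPM over the 5 libraries were compared, which were 9044 genes in all and 29 of the 31 members. Sgsh, a sulfatase of heparan sulfate, averaged 4.79 CPM and Galc, which cleaves galactosylceramide, averaged 3.54 CPM, and both lay below that mean. In sums over all cells of a library, fewer cells of a type and less RNA per cell cannot be told apart. The 31 members together made up 5573 CPM on day 0, 3633 CPM with P-G3 and 4418 CPM untreated on day 3, and 3462 CPM with P-G3 and 3703 CPM untreated on day 6. Cd63 alone took a large part of this, and the other 30 members summed to 3576 CPM on day 0, 2631 CPM with P-G3 and 3453 CPM untreated on day 3, and 2521 CPM with P-G3 and 2918 CPM untreated on day 6. Without Cd63 the untreated sum on day 3 was close to that of day 0, and both P-G3 sums were below the untreated sum of their day.

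The first comparison was the course of untreated differentiation. As a group the lysosomal genes did not move in 1 direction: individual members went both ways by day 3, and of those at least 1.5-fold away from day 0 on day 6 more were lower than higher. From day 0 to day 3 the members' median log2 ratio was 0.00, with 15 higher and 14 lower, beside a median of 0.10 over all genes. At least 1.5-fold higher were 4 members, Scarb2, Man2b1, Lipa and Psap, beside 17.3% of all genes, and at least 1.5-fold lower were 4 others, Ctsl, Cd63, Ctsa and Asah1, beside 8.69% of all genes. These shares are near those of the background, so they say nothing particular of the members as a set. At least 2-fold higher was none (7.80% of all genes), and at least 2-fold lower were Ctsl and Cd63 (3.36% of all genes). From day 3 to day 6 the median was -0.12 beside 0.05 over all genes, with 1 member at least 1.5-fold higher, beside 16.0% of all genes, and 7 at least 1.5-fold lower, beside 12.9% of all genes. None was 2-fold higher (7.03% of all genes), and Gla alone was 2-fold lower (6.26% of all genes). From day 0 to day 6 the range over members ran from -1.74 to 1.71, with 4 members at least 1.5-fold higher (29.2% of all genes) and 11 at least 1.5-fold lower (18.4% of all genes). Past 2-fold were Scarb2 and Lipa on the higher side (16.9% of all genes) and 7 members on the lower side (10.1% of all genes).

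**Figure D1:**
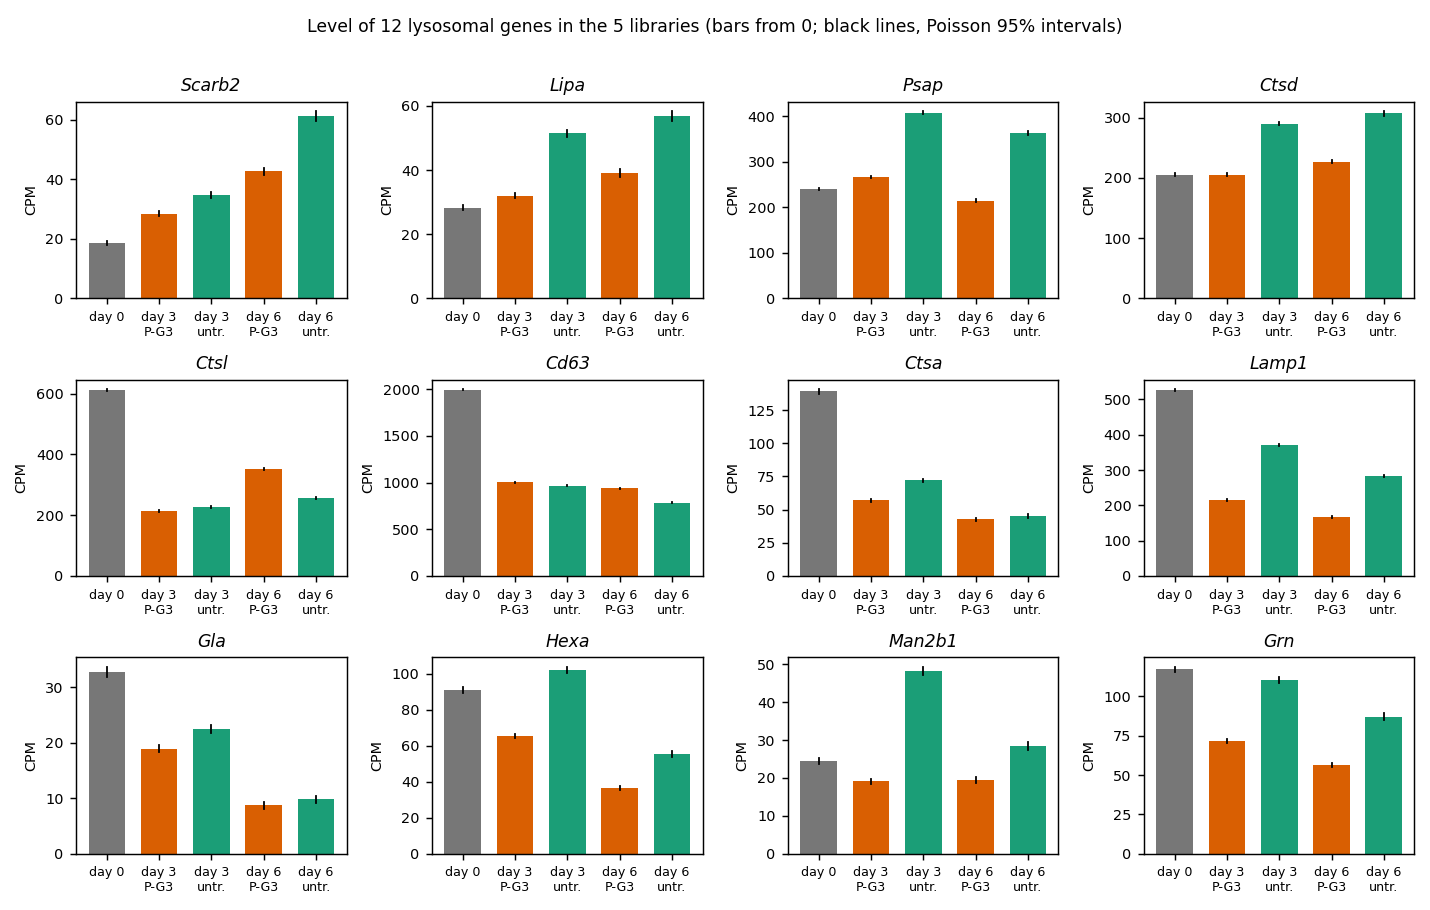
CPM of 12 lysosomal genes in the 5 libraries, with 1 bar per library from 0, exact Poisson 95% intervals as black lines, and P-G3 (orange) left of untreated (green) on each day. Scarb2 had 18.7 CPM on day 0 and 61.3 CPM on day 6 untreated, whereas Ctsl, Cd63, Ctsa, Lamp1 and Gla were highest on day 0.

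Among the membrane proteins, Scarb2, the receptor LIMP-2 that carries glucocerebrosidase to the lysosome, had 18.7 CPM on day 0, 28.5 CPM with P-G3 and 34.7 CPM untreated on day 3, and 42.7 CPM with P-G3 and 61.3 CPM untreated on day 6. Its untreated level was higher at each later day, with log2 ratios of 0.89 (0.83 to 0.96) for day 3 over day 0 and 0.82 (0.76 to 0.88) for day 6 over day 3, which add up to 3.28-fold from day 0 to day 6. When cells were split at the median adipocyte share of both libraries, both ratios were smaller in each set of cells, as given below. Npc1, which exports cholesterol from the lysosome, had 10.2 CPM on day 0, 8.48 CPM with P-G3 and 13.1 CPM untreated on day 3, and 11.8 CPM with P-G3 and 17.3 CPM untreated on day 6. The major membrane glycoproteins went the other way. Lamp1, the most used lysosome marker, had 526 CPM on day 0, 216 CPM with P-G3 and 372 CPM untreated on day 3, and 167 CPM with P-G3 and 282 CPM untreated on day 6. Lamp2, which takes part in chaperone-mediated autophagy and in the fusion of autophagosomes, had 202 CPM on day 0, 103 CPM with P-G3 and 173 CPM untreated on day 3, and 94.9 CPM with P-G3 and 130 CPM untreated on day 6. Cd63, a tetraspanin of late endosomes and exosomes, had 1997 CPM on day 0, 1002 CPM with P-G3 and 965 CPM untreated on day 3, and 942 CPM with P-G3 and 785 CPM untreated on day 6. All 3 had their highest level on day 0. Mcoln1, the calcium channel of the lysosome, stayed between 5.72 and 6.95 CPM in all 5 libraries.

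Of the proteases, Ctsl, a cysteine protease that is also secreted, had 612 CPM on day 0, 214 CPM with P-G3 and 227 CPM untreated on day 3, and 351 CPM with P-G3 and 257 CPM untreated on day 6. Its ratio of untreated day 3 over day 0, -1.43 (-1.45 to -1.41), was the lowest of the 29 members in that comparison. Ctsa, which protects beta-galactosidase and neuraminidase in a complex, had 139 CPM on day 0, 57.2 CPM with P-G3 and 71.9 CPM untreated on day 3, and 42.7 CPM with P-G3 and 45.3 CPM untreated on day 6. Ctsk, the collagen-degrading protease of osteoclasts, had 19.3 CPM on day 0, 10.9 CPM with P-G3 and 14.3 CPM untreated on day 3, and 7.84 CPM with P-G3 and 9.04 CPM untreated on day 6. Both were lower at each later day in untreated cells, and together with Ctsl they were the 3 proteases at least 2-fold lower on day 6 than on day 0. Tpp1, which removes tripeptides from protein ends, had 63.7 CPM on day 0, 39.1 CPM with P-G3 and 54.8 CPM untreated on day 3, and 35.6 CPM with P-G3 and 53.4 CPM untreated on day 6. The remaining proteases were Ctsb, Ctsd and Ctsz, with ratios between -0.40 and 0.50 in the untreated steps from day 0 to day 3 and from day 3 to day 6. Ctsd, the major aspartic protease, was the protease with a higher untreated level on day 3 than on day 0, at 205 CPM on day 0, 290 CPM on day 3 and 308 CPM on day 6. Ctsd, Ctsl and Glb1 share exon bases on the same strand with Gm49369, Gm49230 and Tmppe in the annotation, so reads could be split between them and their counts are uncertain.

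The glycosidases had unlike patterns. Gla, which cleaves terminal galactose from glycolipids, had 32.8 CPM on day 0, 18.9 CPM with P-G3 and 22.5 CPM untreated on day 3, and 8.68 CPM with P-G3 and 9.79 CPM untreated on day 6. Its untreated ratio of day 6 over day 3, -1.20 (-1.31 to -1.09), was the lowest of the members. Man2b1, an alpha-mannosidase, had 24.6 CPM on day 0, 19.2 CPM with P-G3 and 48.2 CPM untreated on day 3, and 19.5 CPM with P-G3 and 28.5 CPM untreated on day 6. The day 3 untreated library stood above the other 4. Hexa, the alpha subunit of hexosaminidase, had 91.1 CPM on day 0, 65.3 CPM with P-G3 and 102 CPM untreated on day 3, and 36.7 CPM with P-G3 and 55.4 CPM untreated on day 6. Glb1, lysosomal beta-galactosidase, had 22.8 CPM on day 0, 18.6 CPM with P-G3 and 25.01 CPM untreated on day 3, and 20.9 CPM with P-G3 and 29.4 CPM untreated on day 6. Neu1 (20.01 to 25.6 CPM) and Fuca1 (55.9 to 74.0 CPM), which remove sialic acid and fucose, stayed within narrow ranges. Among the glycosaminoglycan enzymes, Gusb, beta-glucuronidase, had 50.02 CPM on day 0, 33.2 CPM with P-G3 and 38.2 CPM untreated on day 3, and 16.0 CPM with P-G3 and 25.5 CPM untreated on day 6. Arsb, the sulfatase of dermatan and chondroitin sulfate, had 10.3 CPM on day 0, 8.52 CPM with P-G3 and 13.2 CPM untreated on day 3, and 6.65 CPM with P-G3 and 12.2 CPM untreated on day 6. Gusb was lower at each later day, and Arsb was lowest in the P-G3 libraries. Naglu, an enzyme of heparan sulfate breakdown, lay between 8.80 and 13.1 CPM.

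The lipid-handling proteins held the other members that were higher on day 3. Lipa, the acid lipase that hydrolyses cholesteryl esters and triglycerides, had 28.3 CPM on day 0, 32.0 CPM with P-G3 and 51.4 CPM untreated on day 3, and 39.1 CPM with P-G3 and 56.8 CPM untreated on day 6. Psap, the precursor of the saposins that present sphingolipids to their hydrolases, had 239 CPM on day 0, 266 CPM with P-G3 and 408 CPM untreated on day 3, and 214 CPM with P-G3 and 364 CPM untreated on day 6. Npc2, which hands cholesterol to Npc1, had 661 CPM on day 0, 881 CPM with P-G3 and 948 CPM untreated on day 3, and 775 CPM with P-G3 and 672 CPM untreated on day 6. All 3 were higher on day 3 untreated than on day 0, Lipa by 0.86 (0.81 to 0.92) and Psap by 0.77 (0.75 to 0.79) on the log2 scale. Asah1, acid ceramidase, had 117 CPM on day 0, 47.2 CPM with P-G3 and 69.6 CPM untreated on day 3, and 44.4 CPM with P-G3 and 53.3 CPM untreated on day 6. Ppt1, which removes palmitate from proteins, had 24.4 CPM on day 0, 14.5 CPM with P-G3 and 21.4 CPM untreated on day 3, and 8.27 CPM with P-G3 and 11.8 CPM untreated on day 6. Grn, the progranulin gene, had 117 CPM on day 0, 71.7 CPM with P-G3 and 110 CPM untreated on day 3, and 56.3 CPM with P-G3 and 87.2 CPM untreated on day 6. These 3 had their highest level on day 0 and their lowest on day 6 with P-G3. Arsa, the sulfatase of sulfatide, had 14.03 CPM on day 0, 13.7 CPM with P-G3 and 19.7 CPM untreated on day 3, and 12.9 CPM with P-G3 and 20.7 CPM untreated on day 6.

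The second comparison set P-G3 against untreated cells on day 3. All members but Cd63 were lower with P-G3, with a median log2 ratio of -0.49, beside -0.23 over all genes. At least 1.5-fold lower were 9 members, Lamp1, Lamp2, Npc1, Hexa, Man2b1, Arsb, Lipa, Psap and Grn, beside 17.3% of all genes, and none was at least 1.5-fold higher, beside 1.25% of all genes. At 2-fold, only Man2b1 was lower (2.91% of all genes) and none was higher (0.144% of all genes). Man2b1 was furthest down, 2.52-fold at -1.33 (-1.39 to -1.27), followed by Lamp1 at -0.79 and Lamp2 at -0.75. All 7 lipid-handling members compared were lower, with a median of -0.56, and so were all 7 proteases, with a median of -0.39 and none past 1.5-fold. Sgsh, below the mean level set for the comparison, had 3.36 CPM with P-G3 and 6.82 CPM untreated on day 3, and 3.15 CPM with P-G3 and 6.56 CPM untreated on day 6, so the P-G3 library had the lower level on both days.

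**Figure D2:**
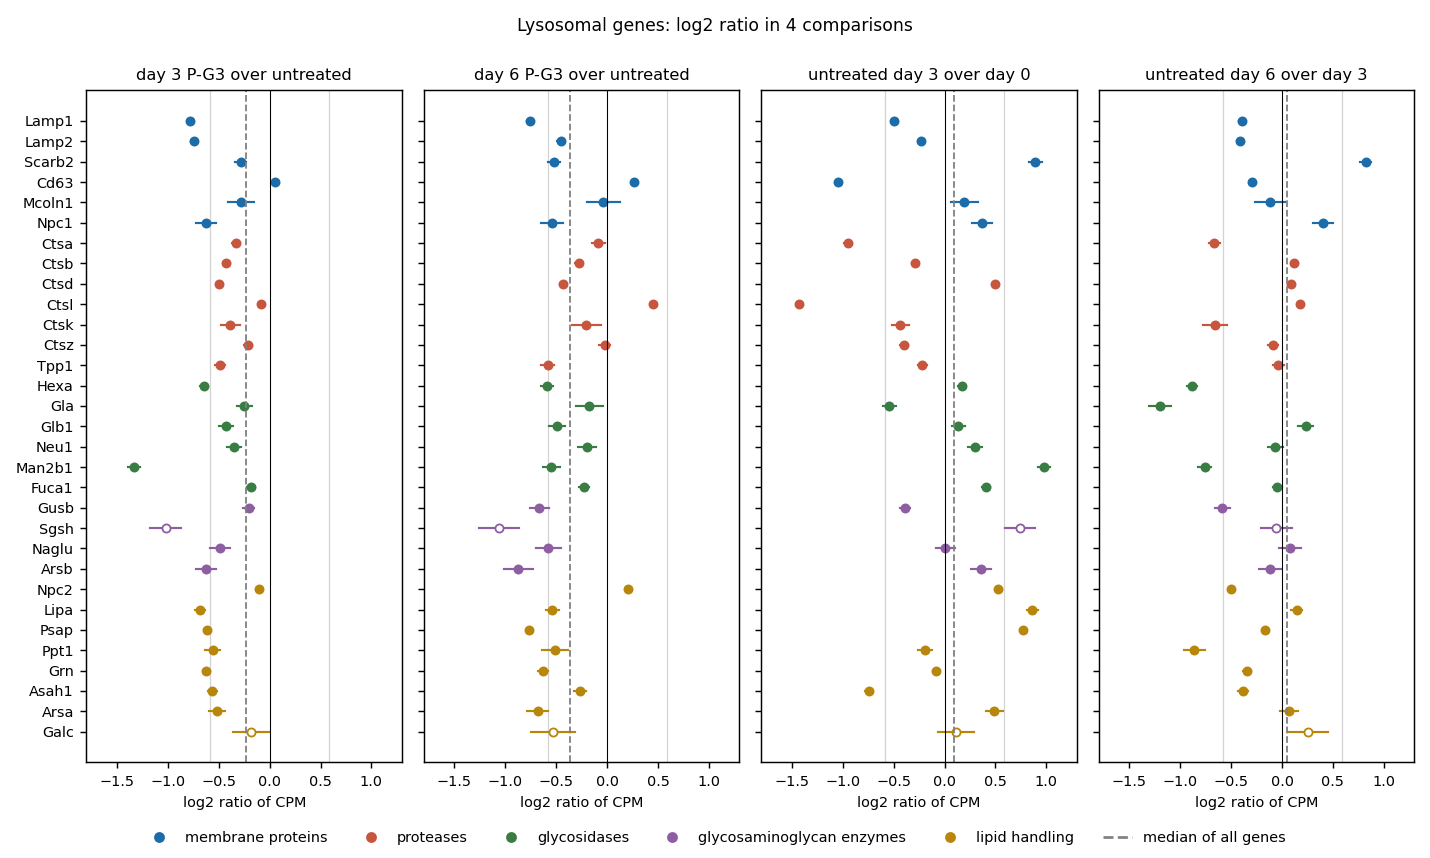
Log2 ratio of CPM of the 31 members in 4 comparisons, the 2 P-G3 comparisons on the left, coloured by role, with 95% counting intervals as lines, open circles for Sgsh and Galc, grey lines at 1.5-fold and a dashed line at the median of all genes. On day 3 all members but Cd63 lay below 0 with P-G3 and 23 of the 29 compared lay below the median of all genes, whereas the untreated courses spread to both sides.

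The size of these differences depended on the scaling of the libraries. The median over all genes was -0.23 with total counts and 0.01 with TMM scaling on day 3, and -0.36 and -0.02 on day 6, and member ratios moved by as much. On day 3 members lower with P-G3 numbered 28 of 29 with total counts, beside 6469 of all 9044 genes. They numbered 23 with TMM and 22 with median-of-ratios scaling. Of the 9 members at least 1.5-fold lower, Man2b1 remained past that fold under both of these scalings, and all 9 kept their sign. Relative to all genes, the members' median was lower by 0.26 on the log2 scale on day 3. In the P-G3 comparisons the ratio also went with transcript length, with a Spearman rho over genes of -0.61 on both days. The medians were 0.12 for the shortest and -0.60 for the longest of 20 length bins on day 3, and 0.16 and -0.77 on day 6. Over the 29 members alone the rho was weaker, -0.11 on day 3 and -0.13 on day 6. With the shortest principal transcript as the length it was -0.29 and -0.32. Each rho is across genes, which are not independent. The 29 members had transcripts of median length 2687 nt, against 3078 nt over all genes. With the median of each gene's length bin subtracted, the members' median on day 3 was -0.25, with 24 of 29 below 0 (21 of 29 with the shortest principal transcript as the length), and Man2b1 (-1.003) and Lamp1 (-0.66) were still at least 1.5-fold lower.

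**Figure D3:**
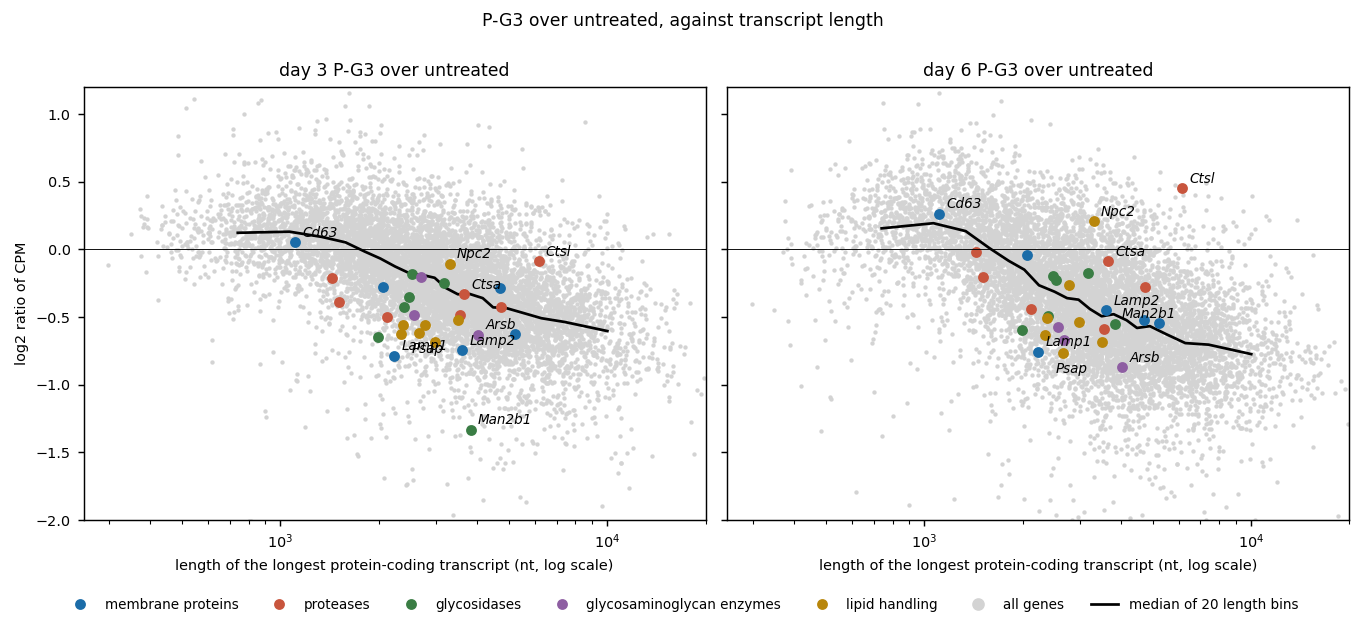
Log2 ratio of CPM, P-G3 over untreated, on day 3 (left) and day 6 (right) against the length of each gene's longest protein-coding transcript on a log scale, with all 9044 genes in grey, the median of 20 length bins as a black line and the 29 members coloured by role. On day 3 most members lie below the line, Man2b1 furthest, and on day 6 they lie on both sides of it, with Ctsl and Npc2 above. Ctsl is drawn at 6168 nt, 1.14 above its bin median on day 6, against 0.65 at its shortest principal transcript, 1971 nt.

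On day 6 the members' median with P-G3 was again -0.49, but the median over all genes was lower than on day 3, at -0.36. At least 1.5-fold lower were 8 members, Lamp1, Tpp1, Hexa, Gusb, Arsb, Psap, Grn and Arsa, beside 32.0% of all genes, so this share is near the background. None was at least 1.5-fold higher, beside 1.38% of all genes, and none was past 2-fold in either direction (7.07% of all genes lower and 0.0995% higher). Among cells with at least 10000 UMIs 7 of the 8 remained past that fold, without Tpp1. The lowest were Arsb at -0.87 (-1.01 to -0.73), Psap at -0.76 (-0.79 to -0.74) and Lamp1 at -0.76 (-0.78 to -0.73). Under TMM or median-of-ratios scaling, or with the length trend removed, none of the 8 was past 1.5-fold, though all kept their sign. Lower members then numbered 17 of 29 under either scaling and 16 of 29 with the trend removed. With total counts they were 26 of 29, beside 6830 of all 9044 genes. In all, 3 members had a higher level with P-G3 on day 6, Ctsl at 0.45 (0.43 to 0.48), Cd63 at 0.26 (0.25 to 0.28) and Npc2 at 0.21 (0.19 to 0.22), and all had a positive sign under each alternative tried. Npc2 was close to 0, at 0.0086, in cells of 30000 to 60000 UMIs. The lowest values of the others were 0.069 for Cd63 with the length trend removed and 0.20 for Ctsl with each cell weighted equally. Lamp1, Psap, Hexa, Arsb and Grn were at least 1.5-fold lower on both days. The share of all genes lower on both days was not counted, so this overlap is not read as a trait of the members. The preadipocyte markers, 8 genes including Dlk1 and Timp1, summed to 1187 CPM with P-G3 and 2243 CPM untreated on day 3, and to 741 CPM with P-G3 and 1532 CPM untreated on day 6, and their part in the lysosomal differences was not tested. When the cells of both libraries of a day were split at their median share of adipocyte genes, the members' median on day 3 was -0.55 above it, beside -0.21 over all genes, but -0.29 at or below it, beside -0.28 over all genes. At least 1.5-fold lower on that day were 13 members above it, beside 16.4% of all genes, and 3 at or below it, beside 20.3% of all genes. On day 6 the members' median was -0.29 above it, beside -0.33 over all genes, and -0.55 at or below it, beside -0.39 over all genes. The day 6 cells at or below it had a median of 4379 UMIs with P-G3 and 18310 UMIs untreated, and 13 members were at least 1.5-fold lower there, beside 37.6% of all genes, against 3 members above it, beside 28.0% of all genes.

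Between the P-G3 libraries, from day 3 to day 6, Ctsl (0.72) and Scarb2 (0.59) were at least 1.5-fold higher, beside 14.2% of all genes. Gla (-1.12), Gusb (-1.05), Hexa (-0.83) and Ppt1 (-0.81) were at least 1.5-fold lower, beside 17.0% of all genes. Past 2-fold were none on the higher side (5.82% of all genes) and Gla and Gusb on the lower side (8.04% of all genes). The same 4 were also at least 1.5-fold lower from day 3 to day 6 in untreated cells (-1.20 for Gla, -0.59 for Gusb, -0.89 for Hexa and -0.86 for Ppt1). How many of all genes were lower in both of these steps was not counted. Man2b1, lower by 0.76 on the log2 scale between these days in untreated cells, had a ratio of 0.02 (-0.055 to 0.10) in P-G3 cells, where its level was already 19.2 CPM on day 3.

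Within each library, cells were ranked by the share of their UMIs from the 9 adipocyte genes and divided into quartiles, 4 groups of like size. On day 0, when the adipocyte share came almost wholly from Lpl, all 29 members were higher in the upper quartile than in the lower, with a median log2 ratio of 0.32, beside 0.06 over all genes. Scarb2, Gla and Neu1 were at least 1.5-fold higher there, beside 4.41% of all genes, and none was as much lower, beside 1.23% of all genes. In the 4 induced libraries most members were lower in the upper quartile. The number lower was 28 of 29 with P-G3 and 26 of 29 untreated on day 3, with medians of -0.86 with P-G3 and -0.67 untreated. On day 6 it was 19 of 29 with P-G3 and 21 of 29 untreated, with medians of -0.44 with P-G3 and -0.83 untreated. Over all genes the medians of these 4 libraries lay between 0.03 and 0.14. At least 1.5-fold lower in the upper quartile were 21 members with P-G3, beside 17.1% of all genes, and 15 untreated, beside 16.6% of all genes, on day 3. On day 6 they were 10 members with P-G3, beside 15.9% of all genes, and 17 untreated, beside 20.9% of all genes. The members' shares were above those of all genes in each of these 4 libraries. The 10 cell division genes described below moved with this ranking too, and their part in these differences was not tested. They summed to 871 CPM in the upper and 1264 CPM in the lower quartile on day 0, to 1137 and 1910 CPM with P-G3 and 1033 and 2170 CPM untreated on day 3, and to 203 and 313 CPM with P-G3 and 178 and 303 CPM untreated on day 6.

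**Figure D4:**
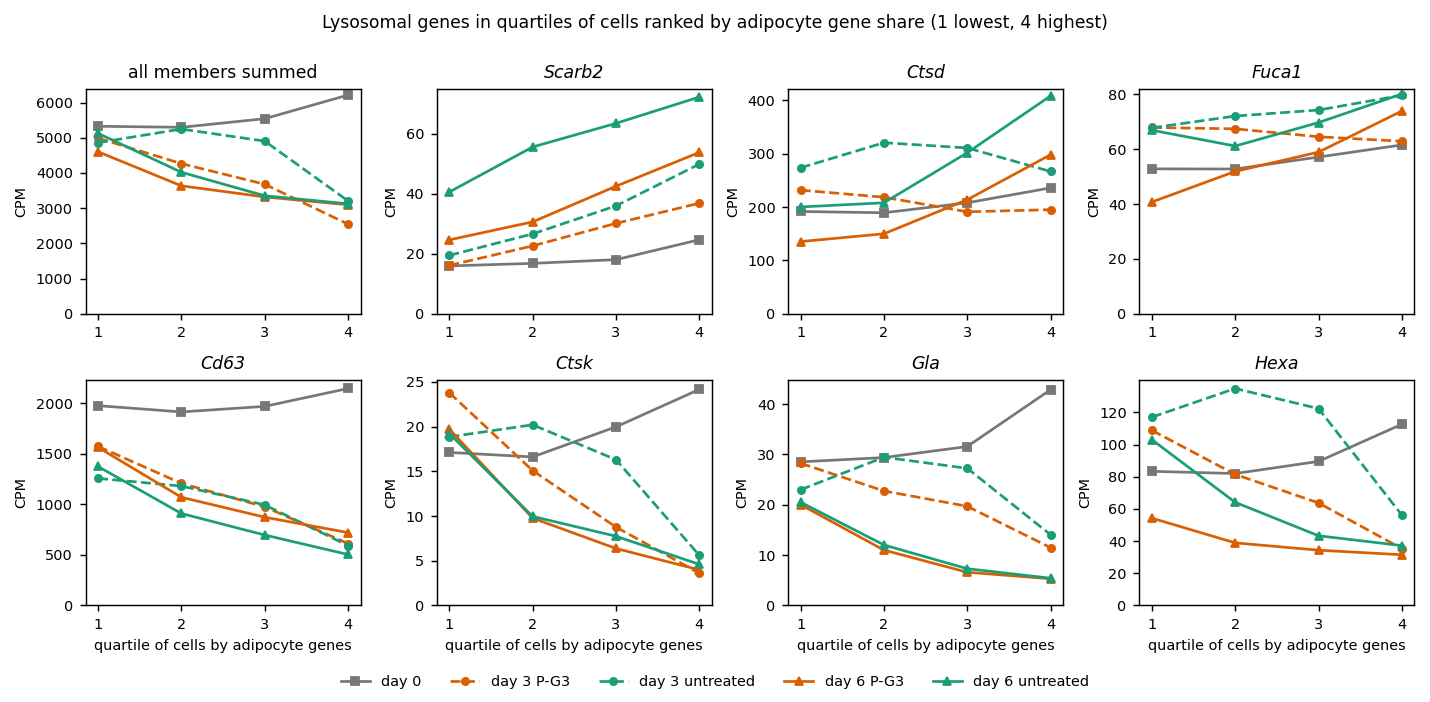
CPM of all members summed and of 7 members in quartiles of cells ranked by the share of UMIs from adipocyte genes (1 lowest, 4 highest), with 1 line per library, the y axes starting at 0. Scarb2 climbs with the quartiles in all 5 libraries and Ctsd from quartile 1 to 4 in those of day 6, while Cd63, Ctsk, Gla and Hexa are lower in quartile 4 than in quartile 1 in all 4 induced libraries.

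Scarb2 was at least 1.5-fold higher in the upper quartile of every induced library. It was the sole such member on day 3, beside 25.0% of all genes with P-G3 and 18.1% untreated. On day 6 Ctsd joined it in both libraries and Fuca1 in that with P-G3, beside 22.5% of all genes with P-G3 and 20.8% untreated. The Scarb2 level in the upper and lower quartiles was 36.9 and 16.1 CPM with P-G3 and 49.9 and 19.5 CPM untreated on day 3, and 53.8 and 24.7 CPM with P-G3 and 72.3 and 40.6 CPM untreated on day 6. Ctsd had little difference between the quartiles on day 3 but on day 6 had 298 CPM in the upper and 135 CPM in the lower quartile with P-G3, and 409 CPM in the upper and 200 CPM in the lower quartile untreated. Fuca1 was also higher in the upper quartile on day 6, by 0.86 with P-G3 and 0.26 untreated. At the other end, Ctsk had 3.60 CPM in the upper and 23.8 CPM in the lower quartile with P-G3 on day 3, and 5.60 and 18.9 CPM untreated, a log2 ratio of -2.73 (-2.95 to -2.51) with P-G3 and -1.75 (-1.97 to -1.54) untreated. On day 6 the ratio of Ctsk was -2.31 with P-G3 and -2.07 untreated, and that of Gla was -1.92 in both. Cd63 was lower in the upper quartile by 1.36 with P-G3 and 1.09 untreated on day 3, and by 1.12 with P-G3 and 1.45 untreated on day 6, all on the log2 scale. Depth moved with the quartiles in the induced libraries. On day 6 the median cell had 55060 UMIs in the upper and 5678 UMIs in the lower quartile with P-G3, and 58510 UMIs in the upper and 25570 UMIs in the lower quartile untreated. Among day 6 cells with at least 10000 UMIs the result was as large, with 20 of 29 members lower with P-G3 (median -0.46) and 22 of 29 untreated (median -0.83).

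Cells rich in cell division genes also had lower shares of these RNAs on day 3. In the upper quartile of cells by the share of 10 cell division genes, such as Mki67 and Top2a, all 29 members were lower than in the lower quartile, both with P-G3 (median -0.63) and untreated (median -0.70). At least 1.5-fold lower were 16 members with P-G3, beside 9.39% of all genes, and 18 untreated, beside 10.9% of all genes. On day 0, 27 of 29 were lower, with a median of -0.45, and 9 were at least 1.5-fold lower, beside 6.89% of all genes. Depth differed between these quartiles too. On day 3 the median cell had 50250 UMIs in the upper and 29380 UMIs in the lower quartile with P-G3. Untreated it had 46780 and 26240 UMIs on day 3, and on day 0 it had 57590 and 38570 UMIs. The part of depth in these differences was not tested. The 2 rankings are not independent, since the adipocyte genes summed to less in the upper quartile of dividing cells than in the lower, with log2 ratios of -0.48 with P-G3 and -0.81 untreated on day 3 and -0.91 on day 0. On day 6 the lower quartile had no UMI from these genes and a median of 1672 UMIs with P-G3 and 1766 UMIs untreated, so that the quartiles of that day differ in depth and no order is read from them.

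The untreated steps were also read within sets of cells split by adipocyte genes. Between day 3 and day 0, Scarb2, at 0.89 over all cells, had ratios of 0.48 in cells above the median adipocyte share of both libraries and -0.0093 in those at or below it, so it was past 1.5-fold in neither. The members' median of that step was -0.41 above the median share and 0.11 at or below it, beside 0.10 and 0.04 over all genes. Cells above the median share were 82.5% of the day 3 library and 13.6% of the day 0 library. The split does not match the adipocyte share of the 2 libraries within either set. Between day 6 and day 3 the members' median was -0.12 over all cells, but 0.31 among cells above the median adipocyte share of both libraries and 0.11 among the cells at or below it, beside 0.06 and -0.04 over all genes. Cells above that median were 91.2% of the day 6 library and 21.8% of the day 3 library. Ctsa, lower by 0.67 over all cells, had ratios of 0.35 and 0.01 in the cells above and at or below the median, and Ctsk, lower by 0.66, had 0.76 and 0.30. Hexa (0.03 and -0.15) and Ppt1 (-0.14 and -0.11) were close to 0 in both sets of cells. Gla kept a ratio of -0.56 in the cells above and -0.06 in the others, whereas Man2b1 (-0.33 and -0.48) and Gusb (-0.30 and -0.34) stayed lower in both. Scarb2 stayed higher in both, at 0.30 and 0.36, but was past 1.5-fold in neither. Ctsd, at 0.08 over all cells, was at 0.25 above the median and -0.63 at or below it. The set at or below the median held 218 cells of day 6 and 2814 cells of day 3.

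**Figure D5:**
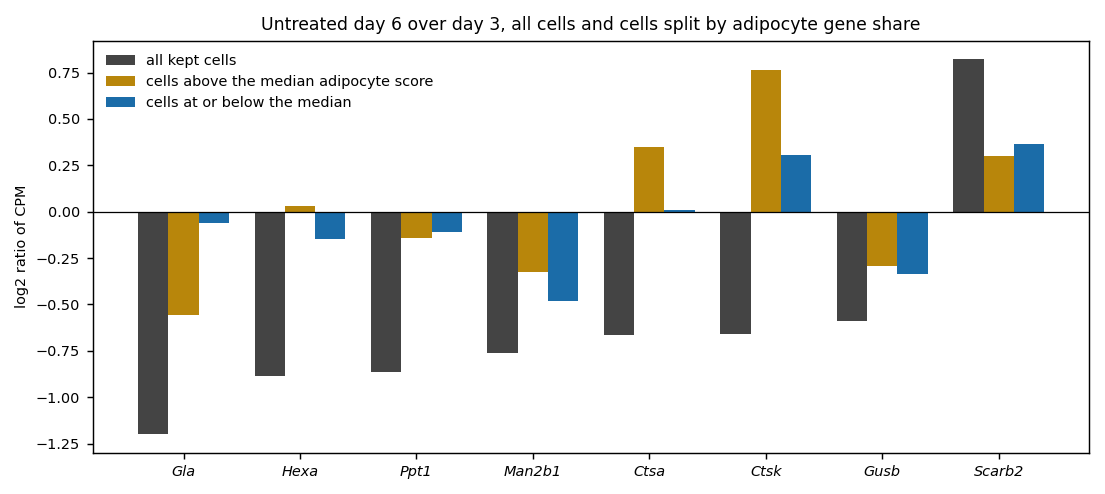
Log2 ratio of CPM, untreated day 6 over day 3, of the 8 members at least 1.5-fold different over all cells (grey), in cells above (gold) and at or below (blue) the median adipocyte gene share of both libraries. Ctsk is above 0 within both sets of cells, Ctsa above 0 in one and near 0 in the other, and Hexa and Ppt1 come close to 0.

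Per cell, the members were compared after thinning each cell to 10000 UMIs, which left out 28 cells on day 0, 218 with P-G3 and 203 untreated on day 3, and 1665 with P-G3 and 927 untreated on day 6. The median cell then had 55 UMIs of the 31 genes on day 0, 38 with P-G3 and 46 untreated on day 3, and 34 with P-G3 and 37 untreated on day 6. The range from the lower to the upper quartile of cells was 45 to 67 UMIs on day 0, 28 to 52 with P-G3 and 34 to 61 untreated on day 3, and 27 to 45 with P-G3 and 28 to 50 untreated on day 6. The distributions overlap widely between libraries. Cd63 is part of these totals, and no count per cell was made without it. In the library sums, the members other than Cd63 came to 3576 CPM on day 0. On day 3 they came to 2631 CPM with P-G3 and 3453 CPM untreated. In the same cells without thinning the medians were 5472 UMIs per 1000000 on day 0, 3812 with P-G3 and 4625 untreated on day 3, and 3390 with P-G3 and 3640 untreated on day 6. Over all kept cells, those under 10000 UMIs included, the day 6 medians were 2781 with P-G3 and 3061 untreated. Of the 31 genes the median thinned cell showed 14 on day 0, 12 with P-G3 and 14 untreated on day 3, and 11 with P-G3 and 13 untreated on day 6.

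Members with and without the CACGTG core were set side by side in the P-G3 comparisons, with no test. The 9 with it at the mean level set for the comparison had a median of -0.43 on day 3 and -0.44 on day 6, and the 17 without it had -0.49 and -0.52. Sgsh, which holds the core but lies below that level, had -1.02 on day 3 and -1.06 on day 6 and is in neither median. From day 3 to day 6 in untreated cells the medians were 0.07 with the core and -0.30 without it, and from day 0 to day 3 they were 0.00 and 0.17. The ranges of the groups overlapped in all 4 comparisons.

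Other genes of the lysosome were described from further lists, with the same shares of all genes past 1.5-fold as given for each comparison. With P-G3, 17.3% of all genes were that much lower on day 3 and 32.0% on day 6, and 1.25% and 1.38% higher. In untreated cells, 17.3% were that much higher and 8.69% lower from day 0 to day 3. From day 3 to day 6 these shares were 16.0% and 12.9%. The 17 V-ATPase genes had a median of -0.13 with P-G3 on day 3 (0.11 after TMM scaling) and of -0.05 on day 6 (0.29 after TMM scaling), with 1 member at least 1.5-fold lower on day 3 and 2 on day 6. Atp6v0a2, a membrane subunit, was the lowest on both days, at -0.75 and -1.17, and the highest were Atp6v0e (0.15) and Atp6v1f (0.38). In untreated cells 15 of the 17 were higher on day 6 than on day 3, beside 4883 of all 9044 genes. Atp6v1b2 was the highest (0.64) and Tcirg1 the lowest (-0.66). Of 20 further lysosomal hydrolases, 6 were at least 1.5-fold lower with P-G3 on each day and 1 was higher on day 3. Ifi30, a thiol reductase, led at 0.59 on day 3 and 0.50 on day 6, and the lowest on day 6 was Ids (-1.12), an enzyme of heparan sulfate breakdown. In untreated cells from day 0 to day 3, 5 of the 20 were at least 1.5-fold higher, Ctso most (2.48), and 4 were lower. From day 3 to day 6 they were 4 higher, Gm2a most (1.61), and 3 lower.

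Of 15 further lysosomal membrane proteins, 5 were at least 1.5-fold lower with P-G3 on day 3, Clcn7 most (-1.05), and 3 on day 6, Tpcn1 most (-1.17), and none was as much higher. Of all genes, 17.3% were as much lower with P-G3 on day 3 and 32.0% on day 6, and 1.25% and 1.38% higher. In untreated cells, 17.3% were as much higher and 8.69% lower from day 0 to day 3. From day 3 to day 6 these shares were 16.0% and 12.9%. The highest were Abcd4 (0.33) on day 3 and Glmp (0.18) on day 6. From day 0 to day 3 in untreated cells 2 were higher, Slc38a9 most (1.38), and none was as much lower, with Glmp at -0.52. From day 3 to day 6, 2 were higher, Cd164 most (1.21), and 2 lower, Glmp most (-1.002). Among 15 genes that sort enzymes to the lysosome, Sort1, the sorting receptor sortilin, which also serves in the Glut4 vesicles of fat cells, had 0.807 CPM on day 0, 5.71 CPM with P-G3 and 6.34 CPM untreated on day 3, and 19.1 CPM with P-G3 and 27.2 CPM untreated on day 6. It led the list in both untreated steps, in which 4 and then 1 of the 15 were at least 1.5-fold higher and 1 in each was lower, Vps29 (-0.71) and Nagpa (-0.86). With P-G3, 3 were lower on day 3, Igf2r most (-0.71), and 5 on day 6, Gnptab most (-0.75), while Vps29 was the highest on both days (0.15 and 0.44).

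Among 15 genes of the TFE factors and of mTORC1 at the lysosome, Tfeb had 2.51 CPM on day 0, 7.68 CPM with P-G3 and 6.11 CPM untreated on day 3, and 16.1 CPM with P-G3 and 19.0 CPM untreated on day 6. Its level was higher at each later day, and it was the highest of the list in both untreated steps, at 1.28 and 1.64, with none lower by 1.5-fold in the first, where Rraga was the lowest (-0.24), and Flcn (-0.66) in the second. With P-G3, 6 of these genes were at least 1.5-fold lower on day 3, Fnip1 most (-0.85), and 7 on day 6, Fnip2 most (-1.21), and the highest were Tfeb (0.33) and Lamtor5 (0.23). Of all genes, 17.3% were as much lower with P-G3 on day 3 and 32.0% on day 6, and 1.25% and 1.38% higher. In untreated cells, 17.3% were as much higher and 8.69% lower from day 0 to day 3. From day 3 to day 6 these shares were 16.0% and 12.9%. Of 23 autophagy genes, 2 were at least 1.5-fold lower with P-G3 on day 3 and 6 on day 6, Ulk2 most on both days (-1.08 and -1.02), and none was as much higher, with Sqstm1 (0.13) and Gabarapl2 (0.13) at the top. From day 0 to day 3 in untreated cells 4 were higher, Nbr1 most (1.04), and 1 lower, Gabarap (-0.65). From day 3 to day 6, 3 were higher, Map1lc3a most (0.71), and 1 lower, Vmp1 (-0.65). With the length trend removed the P-G3 medians of these lists lay between -0.24 and 0.12, and the lowest, -0.24, was that of the further hydrolases on day 3. After TMM scaling the day 6 medians of the further membrane proteins (0.068) and of the autophagy genes (0.086) also lay above 0.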

How the data were processed

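Single-cell libraries of 3T3-L1 cells were deposited as UMI count matrices, which the authors made with Cell Ranger on GRCm38. The version is 3.1.0 per the submitters' processing notes and 5.0.1 per the file headers. Barcodes with at least 500 genes and at most 20% mitochondrial UMIs were kept. No doublet caller was run; a repeat without the top 5% of cells by UMI number stands in for it. Counts were summed per library and divided by the library total (CPM). Ratios use no pseudocount, and a library at 0 would be set to 3 counts. Intervals are exact 95% Poisson intervals for levels and conditional binomial intervals for ratios. They cover counting error only. With 1 library per group no test was made.

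The comparison was limited to genes with a mean of at least 5 CPM. Members named with all 5 values are those at least 1.5-fold different, or among the 3 highest or lowest, in any of 4 comparisons. Of the other lists the highest and lowest genes are named, and some of these are not reported here. The members and all lists were chosen with earlier results of these data known. The 14 repeats with other settings cover scaling, length, pseudocount, floor, cell filters, cell weights and splits by adipocyte genes. A length trend on the shortest principal transcript was added after seeing the data. Transcript lengths came from GENCODE vM21 and promoters from RefSeq on GRCm38.p6. The ratio code was tested on simulated counts. Python 3.11.15, numpy 2.4.6, scipy 1.17.1, pandas 2.3.3, R 4.3.3 and edgeR 4.0.16 (for TMM only) were used.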

Additional observations from a re-analysis of the deposited data

Results flagged for a closer look

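Ctsl and Npc2 had P-G3 ratios of opposite sign on the 2 days, each with a counting interval that leaves out 0. For Ctsl the log2 ratio of P-G3 over untreated was -0.086 on day 3 and 0.45 on day 6. For Npc2 it was -0.11 on day 3 and 0.21 on day 6. The difference between the days was not tested, since each group is 1 library. With TMM scaling both days were positive for both genes, at 0.15 on day 3 and 0.79 on day 6 for Ctsl, and at 0.13 on day 3 and 0.54 on day 6 for Npc2.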

How the results depend on the processing

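No paired analysis was possible because each group is 1 library. Counting error is small at this depth, but the spread between cultures cannot be had from 1 library per group. The causes of the shifts below were not tested. Apart from lower genes in the P-G3 cell splits, the share of all genes past 1.5-fold was not counted under the alternative settings. Counts of members under those settings therefore have no background and are not read as results about the members.

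For P-G3 on day 3, the members' median (-0.49) was -0.25 with TMM scaling, -0.22 with median-of-ratios scaling, -0.25 with the length trend removed, -0.22 with it removed on the shortest principal transcript, -0.43 at a mean of at least 20 CPM, -0.36 in cells of 30000 to 60000 UMIs, -0.55 in cells above the median adipocyte share and -0.29 in those at or below it. Members at least 1.5-fold lower (9) were 1 with either scaling, 2 with either length trend removed and 3 in cells at or below the median. For P-G3 on day 6, the median (-0.49) was -0.15 with TMM, -0.10 with median-of-ratios, -0.092 and -0.029 with the 2 length trends removed, and -0.29 in cells above the median. Members at least 1.5-fold lower (8) were 0 under those 4 alternatives, 3 in cells above (28.0% of all genes) and 13 in cells at or below the median (37.6% of all genes), where the median was -0.55. Members at least 1.5-fold higher (0) were 2 with TMM, 3 with median-of-ratios and 2 with either length trend removed.

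For untreated day 3 over day 0, the median (0.00) was -0.10 with TMM, -0.15 with median-of-ratios, 0.052 without mitochondrial genes, -0.042 and -0.097 with the 2 length trends removed, -0.086 at 20 CPM, 0.11 with no floor, 0.068 without the 5% of cells with most UMIs, 0.14 with cells weighted equally, -0.41 in cells above the median and 0.11 in those at or below it. Lower members (4) were 7 with median-of-ratios and 10 in cells above the median, where 1 was higher. Scarb2 was at -0.0093 in cells at or below the median. For untreated day 6 over day 3, the median (-0.12) was -0.20 on the shortest principal transcript, -0.013 in cells of 30000 to 60000 UMIs, -0.55 with cells weighted equally, 0.31 above and 0.11 at or below the median. Lower members (7) were 4 at 20 CPM, where Gla, Ppt1 and Ctsk average below that floor and leave the set with their ratios unchanged. Lower members were 3 in cells of 30000 to 60000 UMIs, 13 with cells weighted equally, 0 above and 1 at or below the median. That 1 was Ctsd (-0.63), which was at 0.083 over all cells, and none of the 7 was past 1.5-fold in either set. Higher members (1) were 0 with cells weighted equally and 8 above the median. In cells above and at or below it, Ctsa was at 0.35 and 0.012 and Ctsk at 0.76 and 0.30, and Hexa was at 0.032 above it. Over all 31 members and the 13 settings that can move a single ratio, the sign was opposite to the reported one in 32 of 399 values for P-G3 on day 3, 43 for P-G3 on day 6, 21 for untreated day 3 over day 0 and 45 for untreated day 6 over day 3.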
